A study of Bos taurus with 20 samples.

Results

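TUBB5 (ENSBTAG00000006969) and TUBA4A (ENSBTAG00000030974) are the 2 genes described here, out of 24616 genes listed in each of 20 rumen RNA-seq libraries. Both were chosen from the list of genes that the study had related to residual feed intake (RFI) in these steers, and both passed the filter on low values, as did 14569 genes in all. By the labels and the study's methods, each library came from papillae cut from the ventral sac of the rumen of 1 Hereford x Aberdeen Angus hybrid steer, taken after slaughter at the end of a finishing diet of barley, oats, alfalfa pellets and a supplement with Rumensin. RFI is the feed an animal eats beyond what its growth and body weight predict, so low-RFI (L-RFI) steers are the efficient ones and high-RFI (H-RFI) steers the inefficient ones, with no treatment or genetic change in either. The sample labels give 11 H-RFI and 9 L-RFI steers, and each library is called here by its steer number.

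Tubulins are the building blocks of microtubules. An alpha-tubulin and a beta-tubulin join as a dimer, and the dimers add to the ends of hollow filaments that carry vesicles, position organelles, form the mitotic spindle and, in epithelial cells, run along the axis from the apical to the basal side. TUBB5, listed as TUBB in RefSeq, is the broadly expressed beta-tubulin, and TUBA4A is an alpha-tubulin known for its abundance in platelets, nerve and muscle, whose coding sequence lacks the final tyrosine that most alpha-tubulins carry. The RefSeq annotation of the ARS-UCD2.0 assembly, which is not the build of the files, names 7 protein-coding alpha-tubulin genes of the TUBA series and 8 beta-tubulin genes of the TUBB series. In it, TUBB lies between FLOT1 and MDC1, and TUBA4A lies between STK16 and another alpha-tubulin gene, TUBA1D. Because 0 of the files' identifiers occur in that table, the rows of the other tubulin genes were not used here. Tubulin genes are alike in sequence, so both levels are uncertain where the counting of reads split them between family members.

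The libraries can be divided in several ways that the RFI groups do not explain. The column header of each file is a code of a letter, D, 2 middle digits and a last digit, and none of the sources used here explains it. The middle digits form 3 sets, coded 01 (8 libraries), 03 (6 libraries) and 12 (6 libraries), and both labelled RFI groups occur in each set, with 5 H-RFI and 3 L-RFI steers in set 01 and 3 of each in sets 03 and 12. All 9 libraries with the letter A are labelled H-RFI, and the letter B holds 2 H-RFI and 7 L-RFI libraries. In sets 03 and 12, where A holds the H-RFI and B the L-RFI steers, letter and label cannot be told apart. Clustering of all genes first set apart 5 libraries, steer 47 of set 03 and steers 105, 155, 317 and 345 of set 12, and the first principal component held 76.2% of the variance. Library totals lay between 9622534 and 13960297 reads assigned to genes. For 6 of the 18 steers that the study's own list of animals names, the label gives the other RFI group, and steers 281 and 345 are not in that list. Some markers of the labelled tissue were low in every library. KRT14, the keratin of basal keratinocytes, was between 0 and 1.35 CPM (counts of a gene scaled to a library total of 1000000), ZNF750, a regulator of squamous differentiation, was between 0 and 0.592 CPM, and PKP1, a desmosome protein, was between 0.0914 and 0.831 CPM. The squamous markers LYPD3 (2.94 to 6.58 CPM) and PKP3 (17.7 to 55.0 CPM) were detected, as were KDR of endothelium (12.6 to 67.4 CPM), MYL9 of smooth muscle (264 to 531 CPM) and CENPE of dividing cells (44.4 to 228 CPM). Near-absent KRT14, ZNF750 and PKP1 go against the label of a squamous epithelium, while the detected LYPD3 and PKP3 go with it. Only 1 of 5 basal keratinocyte markers and 4 of 7 squamous markers had an identifier. Whether the deposited columns belong to the labelled samples was not tested. In bulk RNA fewer cells of a type and less RNA per cell cannot be told apart.

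TUBB5 was among the most abundant mRNAs of these libraries. Its level was 1400 ± 267 CPM (SD, n = 20), above 99.5% of the genes past the filter, with a lowest value of 842 CPM in steer 47, a median of 1446 CPM and a highest value of 1822 CPM in steer 299. Between 8692 and 23307 reads stood behind each value, so counting error was between 0.655% and 1.07%, far under the spread of 19.1% (coefficient of variation) between libraries. TUBA4A was at 175 ± 33.0 CPM (SD, n = 20), above 93.1% of the genes, with a lowest value of 134 CPM in steer 33, a median of 166 CPM and a highest value of 242 CPM in steer 47. Its values rested on 1488 to 2881 reads, with a counting error of 1.86% to 2.59% against a spread of 18.9%. On this deposited scale steer 47 thus held the lowest TUBB5 level and the highest TUBA4A level of the series. After the TMM scaling described below, steer 51 was lowest in TUBB5 (1007 TMM-scaled CPM, against 1211 in steer 47). Steer 47 stayed highest in TUBA4A (347 TMM-scaled CPM).

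On the deposited CPM scale TUBB5 varied little among the libraries of set 01 and widely in the other sets. In set 01 it ran from 1323 CPM in steer 33 over a median of 1498 CPM to 1588 CPM in steer 451, with a mean of 1481 ± 91.9 CPM (SD, n = 8). In set 03 it was 842 CPM in steer 47, 1163 CPM in steer 51, 1434 CPM in steer 55, 1517 CPM in steer 281, 1681 CPM in steer 271 and 1822 CPM in steer 299, with a mean of 1410 ± 357 CPM (SD, n = 6). In set 12 it was 914 CPM in steer 155, 1082 CPM in steer 345, 1154 CPM in steer 317, 1209 CPM in steer 105, 1553 CPM in steer 409 and 1781 CPM in steer 115, with a mean of 1282 ± 323 CPM (SD, n = 6). The 3 sets overlapped, and libraries of sets 03 and 12 lay both below and above the whole range of set 01. The coefficient of variation of TUBB5 on this scale was 6.21% in set 01, 25.3% in set 03 and 25.2% in set 12. After the TMM scaling it was 10.041% in set 01, 20.005% in set 03 and 13.909% in set 12. The contrast in spread thus depended on the scaling, most of all for set 12.

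TUBA4A, by contrast, was higher in every library of sets 03 and 12 than in any library of set 01 on this scale. In set 01 it ran from 134 CPM in steer 33 over a median of 144 CPM to 160 CPM in steer 451, with a mean of 145 ± 9.92 CPM (SD, n = 8). In set 03 it was 164 CPM in steer 51, 165 CPM in steer 281, 176 CPM in steer 271, 210 CPM in steer 55, 225 CPM in steer 299 and 242 CPM in steer 47, with a mean of 197 ± 33.2 CPM (SD, n = 6). In set 12 it was 167 CPM in steer 105, 181 CPM in steer 409, 182 CPM in steer 317, 197 CPM in steer 115, 202 CPM in steer 345 and 230 CPM in steer 155, with a mean of 193 ± 22.1 CPM (SD, n = 6). The gap between set 01 and the other sets was narrow, from 160 CPM in steer 451 to 164 CPM in steer 51, and sets 03 and 12 overlapped throughout. Of all genes past the filter, 0.604% had CPM values in set 01 that did not overlap those of the other 12 libraries. After scaling by TMM, a method that equalizes libraries on the bulk of their genes, TUBA4A no longer separated the sets, since steers 51 (142 TMM-scaled CPM) and 281 (154 TMM-scaled CPM) fell below the highest library of set 01 (156 TMM-scaled CPM).

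**Figure D1:**
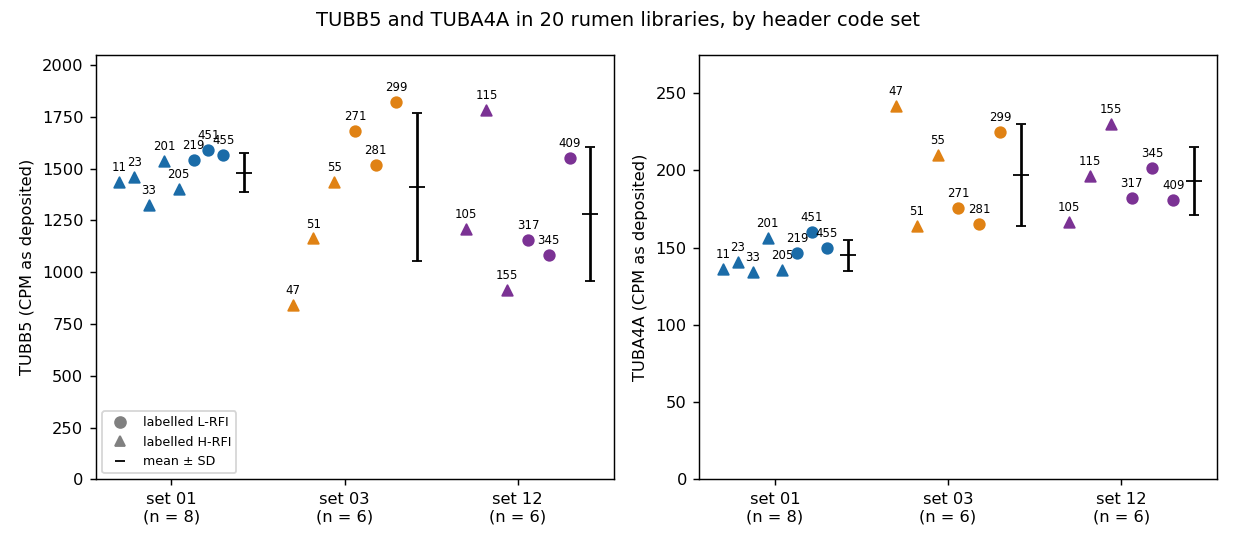
Deposited level in CPM (vertical axes, from 0) of TUBB5 (left) and TUBA4A (right) in each of the 20 libraries, grouped by the set of the header code; each point is 1 library with its steer number, circles are labelled L-RFI and triangles H-RFI, and bars give the mean ± SD of the set. TUBB5 overlaps between all sets (842 to 1822 CPM), while the 8 TUBA4A values of set 01 (134 to 160 CPM) lie below the other 12 (164 to 242 CPM).

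In the fit across all 14569 genes on log2(TMM-scaled CPM + 1), with limma and Benjamini-Hochberg adjustment over all of them, TUBA4A was higher in set 12 than in set 01 by 0.68 ± 0.17 on the log2 scale (SE, adjusted p = 0.00418). This call is no mark of TUBA4A, because 62.3% of all genes were called in the same contrast, and 64.3% of genes had a smaller absolute difference. Against set 01, TUBA4A in set 03 differed by 0.57 ± 0.17 (SE) and did not pass the test (adjusted p = 0.122), in a contrast that called 0.391% of genes. Between sets 12 and 03 the TUBA4A difference was 0.11 ± 0.18 (SE, adjusted p = 0.681), and 0.885% of genes were called (129 genes, but 7411 without steer 47). Over all 3 sets together the adjusted p of TUBA4A was 0.0102, and 53.6% of genes were called. Without the 5 libraries that clustering set apart, the difference between sets 12 and 01 was 0.45 ± 0.16 (SE) and was no longer called (adjusted p = 0.209), with 2 libraries left in set 12 and 9 genes called in all.

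Some cell type markers also differed between sets 12 and 01, a contrast in which 62.3% of all genes were called. A high r with TUBA4A was likewise common, since 1549 genes had r of at least 0.9 and 1016 had -0.9 or lower. KDR, 1 of 4 endothelium markers and the only one with an identifier, was lower in set 12 by -0.54 ± 0.23 (SE, limma adjusted p = 0.0451), with 15.4 to 44.1 CPM against 35.9 to 58.6 CPM in set 01 and r = -0.856 with TUBA4A over 20 libraries. MYL9, the only one of 5 smooth muscle markers with an identifier, was higher by 0.86 ± 0.16 (SE, adjusted p = 0.0019), with 451 to 531 CPM against 264 to 406 CPM and r = 0.888. Of the squamous markers 4 of 7 had an identifier, and their summed level was 22.9 to 35.6 CPM in set 12 and 25.0 to 35.9 CPM in set 01. The part of tissue makeup in the results on the tubulin genes was not tested.

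TUBB5 was called in none of these contrasts. Its fitted difference was 0.03 ± 0.12 (SE) between sets 12 and 01 (adjusted p = 0.840), 0.03 ± 0.12 (SE) between sets 03 and 01 (adjusted p = 0.864) and -0.00058 ± 0.133 (SE) between sets 12 and 03 (adjusted p = 0.997), all on the log2 scale by limma. Of all genes, 3.21% had a smaller absolute difference between sets 12 and 01, where the median gene differed by 0.50 on the log2 scale. The sign of the TUBB5 differences from set 01 depended on the scaling. On the deposited CPM they were -0.24 ± 0.16 (SE, adjusted p = 0.190) for set 12 and -0.11 ± 0.16 (SE, adjusted p = 0.608) for set 03, and leaving out TMM moved the median of all genes between sets 12 and 01 to -0.23. The split of called genes between sets 12 and 01 moved with it, from 4567 higher and 4513 lower with TMM to 2918 higher and 5681 lower without. For TUBA4A the direction was the same on both scales, with 0.41 ± 0.09 (SE, adjusted p = 0.00330) for set 12 and 0.43 ± 0.09 (SE, adjusted p = 0.0460) for set 03 on the deposited CPM, so that the difference of set 03 passed the test on that scale. DESeq2 on the recovered reads called it as well (0.63 on the log2 scale, adjusted p = 0.0297).

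**Figure D2:**
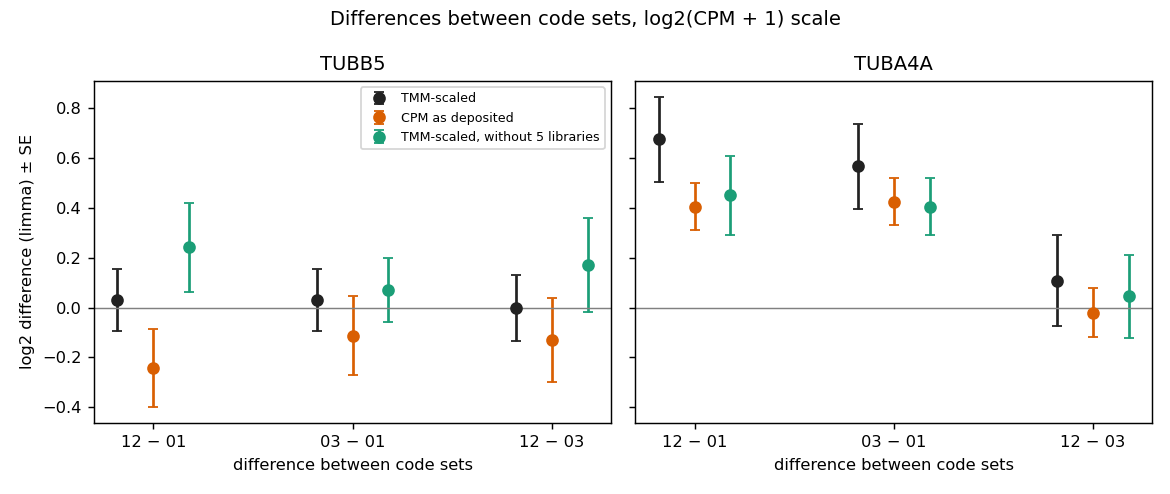
Log2 difference between sets (vertical axis, points) with its SE (bars) from the limma fits for TUBB5 (left) and TUBA4A (right), for TMM-scaled CPM, for CPM as deposited, and for TMM-scaled CPM without the 5 libraries set apart. The TUBB5 difference between sets 12 and 01 is 0.03 with TMM and -0.24 without, whereas the TUBA4A difference stays above 0 (0.68, 0.41 and 0.45).

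The ratio of TUBB5 reads to TUBA4A reads does not depend on how libraries are scaled against each other, and it separated set 01 from the rest. It counts reads per gene and not molecules, since no transcript lengths of the files' build were used. In set 01 the ratio was 9.83 in steer 201, 9.84 in steer 33, 9.90 in steer 451, 10.35 in steer 205, 10.36 in steer 23, 10.46 in steer 455, 10.50 in steer 219 and 10.52 in steer 11. These 8 libraries had a mean of 10.2 ± 0.308 (SD), a coefficient of variation of 3.02%. On the log2 scale their SD was 0.0438, which is 1.21 times the SD of 0.0363 that counting error alone gives at these read numbers. Relative to all other genes, 0.233% had a steadier ratio to TUBB5 within set 01 than TUBA4A did. That spread includes counting error, which is larger for genes with fewer reads, and TUBA4A was above 93.1% of the genes in mean CPM. Its rank among genes of like level was not tested.

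In the other sets the ratio was lower in every library and spread widely. In set 03 it was 3.49 in steer 47, 6.83 in steer 55, 7.09 in steer 51, 8.09 in steer 299, 9.17 in steer 281 and 9.57 in steer 271. In set 12 it was 3.97 in steer 155, 5.36 in steer 345, 6.34 in steer 317, 7.25 in steer 105, 8.59 in steer 409 and 9.06 in steer 115. All 12 libraries lay below the lowest of set 01 (9.83), and the SD of the log2 ratio was 16.1 times the counting error in set 03 and 13.6 times in set 12. Of all genes past the filter, 0.213% had a ratio to TUBB5 in set 01 that did not overlap the other 12 libraries, 31 genes with TUBA4A among them.

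The mean log2 ratio was 3.35 ± 0.04 (SD, n = 8) in set 01, 2.81 ± 0.53 (SD, n = 6) in set 03 and 2.70 ± 0.45 (SD, n = 6) in set 12. The ratio of set 12 was 0.637 times that of set 01 (log2 difference -0.65 ± 0.18, SE), and that of set 03 was 0.687 times that of set 01 (-0.54 ± 0.22, SE). Each difference had p = 0.000666 in an exact two-sided permutation test, the smallest that 8 against 6 libraries can give. The adjusted p of each was 0.0015 over the 9 tests made on TUBB5, TUBA4A and the ratio. Such tests exchange libraries between sets as if the sets were alike in spread. They were not, with SD 0.04 in set 01, 0.53 in set 03 and 0.45 in set 12. A small p is therefore no measure of the difference in mean alone. Sets 12 and 03 did not differ beyond their spread (-0.11 ± 0.28, SE, exact permutation p = 0.708). The same exact tests on log2(CPM + 1) as deposited gave p = 0.000666 for TUBA4A in both contrasts with set 01, and p = 0.0906 and p = 0.518 for TUBB5 in sets 12 and 03 against set 01. Without steer 47 the difference of set 03 fell to -0.34 (exact permutation p = 0.00155). Without all 5 libraries set apart, that of set 12 was -0.21 with an exact permutation p of 0.0444, or 0.0667 adjusted over the 3 pairs of sets. Within the letter A of the code the ratio differed by -0.68 and -0.89 for sets 12 and 03 against set 01, and within the letter B by -0.62 and -0.20, where 3 against 3 libraries allow no exact permutation p under 0.1, the value that each of the 4 had.

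**Figure D3:**
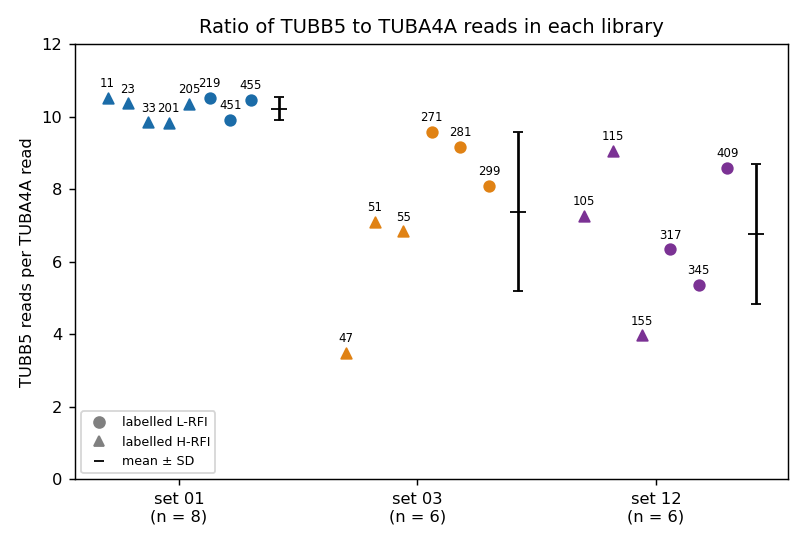
Number of TUBB5 reads per TUBA4A read (vertical axis, from 0) in each library by set of the header code, with steer numbers; circles are labelled L-RFI, triangles H-RFI, and bars give the mean ± SD. The 8 libraries of set 01 lie between 9.83 and 10.52, and the other 12 between 3.49 and 9.57.

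Whether the 2 genes varied together depended on which libraries were compared. Over all 20 libraries on the TMM scale, Pearson's r was 0.108 (permutation p = 0.650) and Spearman's rho 0.209 (permutation p = 0.372), and without the 2 libraries farthest from the median TUBB5 level (steers 51 and 299) r was -0.086. On the deposited CPM r was -0.373 (permutation p = 0.104) and rho -0.149 (permutation p = 0.527), and without the 2 farthest libraries there (steers 47 and 155) r was 0.115. Neither relation passed the test. As a description, TUBA4A stood above 64.7% of all genes in its r with TUBB5 on the TMM scale, and TUBB5 above 53.0% of all genes in its r with TUBA4A.

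Within set 01 the genes rose and fell together. What share of all genes reaches such an r with TUBB5 or TUBA4A in this set was not determined. On the deposited CPM r was 0.895 (exact permutation p = 0.00392, adjusted p = 0.0133 over 16 relations) and rho 0.929 (exact permutation p = 0.00223, adjusted p = 0.0119), and without steers 33 and 205 r was 0.8996. On the TMM scale, where both values of a library share 1 factor, r was 0.958 (exact permutation p = 0.000942, adjusted p = 0.00754) and rho 0.905 (exact permutation p = 0.00456, adjusted p = 0.0183). In set 03 r was -0.294 on the deposited CPM and 0.130 on the TMM scale (exact permutation p = 0.596 and 0.789, n = 6), and in set 12 it was -0.438 and -0.494 (exact permutation p = 0.385 and 0.322, n = 6). Among the 15 libraries that clustering kept together, r was 0.531 on the deposited CPM (permutation p = 0.0407, adjusted p = 0.109) and 0.728 on the TMM scale (permutation p = 0.00206, adjusted p = 0.011). The remaining 5 libraries are too few for a correlation. Their TUBB5 ran from 842 to 1209 CPM and their TUBA4A from 167 to 242 CPM, and steer 47, lowest in TUBB5, was highest in TUBA4A.

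**Figure D4:**
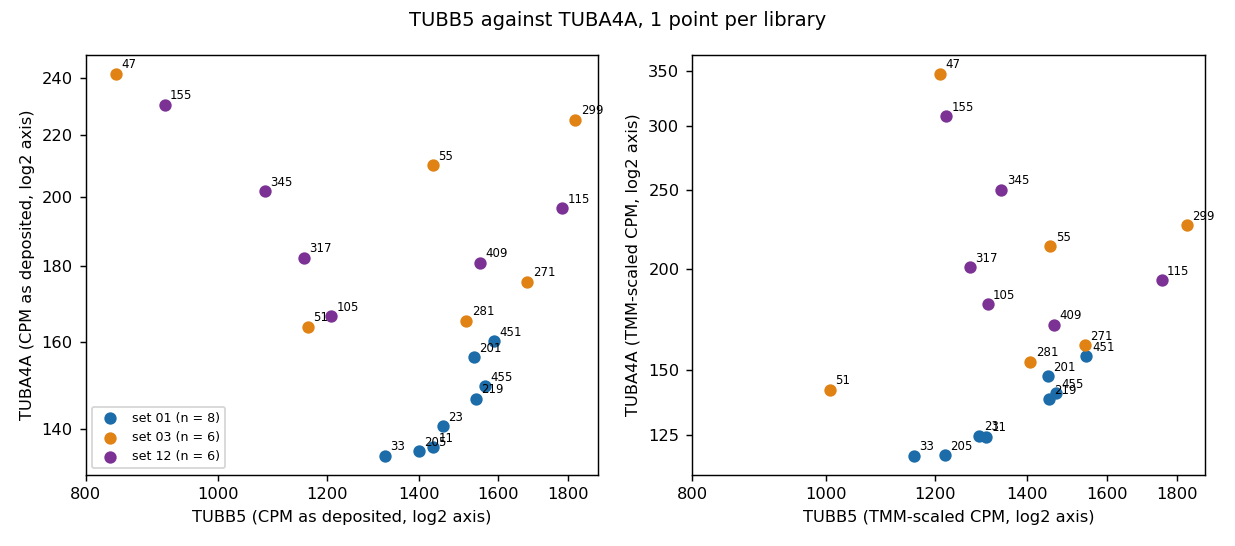
TUBA4A (vertical) against TUBB5 (horizontal) in each library, as deposited CPM (left) and TMM-scaled CPM (right), all axes on a log2 scale, coloured by set and marked with steer numbers. The set 01 points follow a rising line (r = 0.895 and 0.958), while steers 47, 155 and 345 stand at low TUBB5 and high TUBA4A on the deposited scale.

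The ratio moved with how many genes a library detected, but for how many other genes the same holds was not counted. Steer 47 detected the fewest (16165, each by 1 read or more) and the lowest ratio, followed by steers 155 (16479 genes) and 345 (16578 genes). Over the 20 libraries the log2 ratio and the count of detected genes had r = 0.882 (permutation p = 1e-05, the smallest that 100000 permutations give, adjusted p = 0.00016) and rho = 0.756 (permutation p = 0.00022, adjusted p = 0.00352), and r was 0.736 without steers 47 and 155. Within sets, r was 0.940 in set 12 (exact permutation p = 0.00417, adjusted p = 0.0133), 0.871 in set 03 (exact permutation p = 0.0528, adjusted p = 0.121) and 0.0591 in set 01 (exact permutation p = 0.889). Among the 15 libraries that clustering kept together it was 0.429 and did not pass the test (permutation p = 0.112, adjusted p = 0.199). Library depth had r = 0.241 with the log2 ratio (permutation p = 0.307). The TMM factors ran from 1.03 to 1.15 in set 01, from 0.695 to 1.15 in set 03 and from 0.747 to 1.06 in set 12, and the part of RNA quality in any of these values was not tested.

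**Figure D5:**
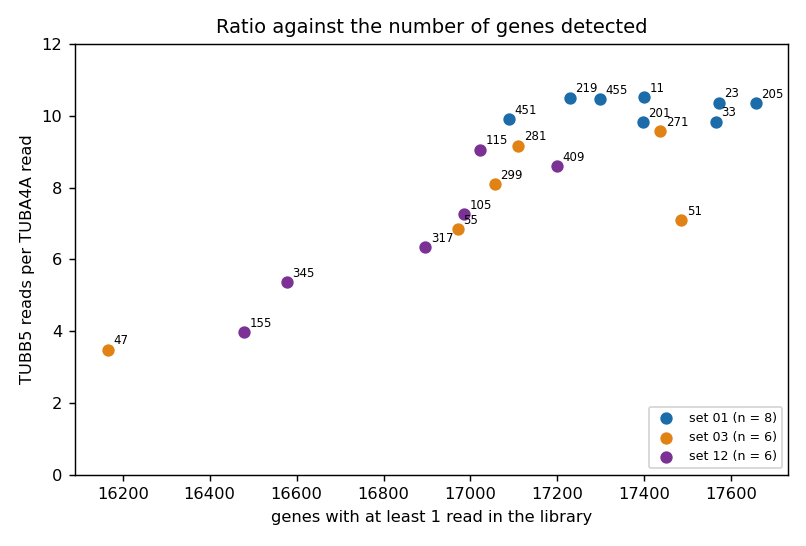
TUBB5 reads per TUBA4A read (vertical axis, from 0) against the count of genes detected by 1 read or more (horizontal axis), 1 point per library with its steer number, coloured by set. The ratio falls to 3.49 in steer 47, which has the fewest genes (16165), while steer 51 has a ratio of 7.09 at 17485 genes and set 01 stays near 10.2.

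Among the genes with a symbol, the 5 most like each tubulin gene in pattern over the 20 libraries had no name in common. For TUBB5, the genes that ranked before the first of these had no symbol here. Among 107 other genes past the filter with a symbol, all from the list on which the study placed both tubulins, the highest r with TUBB5 on the TMM scale was that of the acetyltransferase NAT15 (0.724, rank 114 of 14568 genes), followed by the proteasome assembly chaperone PSMD5 (0.647, rank 240), the chaperone BAG6 (0.613, rank 328), the deubiquitinase USP48 (0.544, rank 503) and the glycolytic pyruvate kinase PKM2 (0.520, rank 590). The lowest were the hydrolase NUDT12 (-0.667) and GCFC (-0.635). Only 2 genes in all reached r = 0.9 with TUBB5. The pattern of TUBA4A was shared much more widely, with 1549 genes at r of at least 0.9 and 1016 at -0.9 or lower. The glycolytic enzyme TPI1 ranked 1 of 14568 genes (r = 0.983), and the named genes after it were the AAA+ ATPase RUVBL1 (0.964, rank 60), beta-actin ACTB (0.958, rank 124), the succinyl-CoA ligase subunit SUCLG2 (0.956, rank 138) and the proteasome subunit PSMB6 (0.952, rank 188). Opposite to it ran the Golgi protein GOLGB1 (-0.939) and the RNA helicase YTHDC2 (-0.929). TUBA4A had r = 0.928 with the first principal component, and 69.7% of genes had a smaller absolute r with that component, whereas TUBB5 had r = -0.117, above 4.63% of genes.

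Other genes of the cytoskeleton, taken from lists that the study's own RFI genes supplied and therefore no independent evidence of the direction of change, were compared between sets 12 and 01 in the same fit. Of 9 actin-related gene identifiers tested, which stand for 8 symbols because TMSB4 has 2, 8 were higher in set 12 and 0 lower. In the same contrast 31.3% of all genes were higher. The median log2 difference of the 9 identifiers was 0.86 against 0.0026 for all genes. ACTB was higher by 0.79 ± 0.22 (SE, limma adjusted p = 0.00585), the actin-severing protein CFL1 by 0.77 ± 0.18 (SE, adjusted p = 0.00344) and the myosin light chain MYL9 by 0.86 ± 0.16 (SE, adjusted p = 0.0019). DSTN, a relative of CFL1, differed by 0.36 ± 0.23 (SE, adjusted p = 0.175). Of 4 genes whose products act with microtubules or along them, 2 were lower and 1 higher, where 31% of all genes were lower and 31.3% higher, and counts this small say nothing particular about the list. The kinetochore motor CENPE was lower by -0.83 ± 0.17 (SE, adjusted p = 0.00242) and the Golgi tether GCC2 by -1.45 ± 0.45 (SE, adjusted p = 0.0107), while the autophagy protein GABARAP was higher by 0.55 ± 0.14 (SE, adjusted p = 0.00407). The dynamin DNM2 differed by -0.12 ± 0.08 (SE, adjusted p = 0.190). Of 3 junction remodelling partners only ACTB was called, and of 3 tested junction proteins (PKP3, VEZT and LLGL2) 0 were called by limma, beside 62.3% of all genes in this contrast. Between sets 03 and 01, where 0.391% of all genes were called, 0 genes of these lists were.

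Since both tubulin genes were chosen from the study's RFI genes, their levels by RFI group are a description. By the labels, TUBB5 was at 1500 ± 237 CPM (SD, n = 9) in L-RFI steers and at 1318 ± 272 CPM (SD, n = 11) in H-RFI steers, and the groups overlapped, from 1082 to 1822 CPM against 842 to 1781 CPM. The fitted difference on the TMM scale, L-RFI minus H-RFI, was 0.19 ± 0.10 (SE). With the groups of the study's list of animals in place of the labels it was 0.01 ± 0.12 (SE). TUBA4A was at 176 ± 25.1 CPM (SD, n = 9) in the efficient and 174 ± 39.5 CPM (SD, n = 11) in the inefficient steers, a fitted difference of 0.03 ± 0.20 (SE) by the labels and 0.0016 ± 0.21 (SE) by the list. Under the other settings it lay between -0.06 (DESeq2) and 0.24 (without 4 of the libraries set apart), with no steady sign. In this contrast limma called 0% of all genes (121 at an unadjusted p under 0.05), and edgeR and DESeq2 on the recovered reads called 0 as well (176 and 254 at an unadjusted p under 0.05).

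Within sets the labelled groups lay differently, but how many of all genes separate the labelled groups within a set was not counted. In set 01 TUBB5 ran from 1541 to 1588 CPM in 3 libraries labelled L-RFI, and between 1323 and 1537 CPM in 5 labelled H-RFI. In set 03 it ran from 1517 to 1822 CPM in L-RFI and from 842 to 1434 CPM in H-RFI, 3 libraries each. In set 12 the groups overlapped, with 1082 to 1553 CPM in L-RFI and 914 to 1781 CPM in H-RFI. On the TMM scale the difference was 0.22 ± 0.06 (SE) in set 01, 0.39 ± 0.19 (SE) in set 03 and -0.06 ± 0.17 (SE) in set 12. By the study's list the difference in set 01 was -0.13 ± 0.10 (SE), the opposite sign. In set 03 the ratio of TUBB5 to TUBA4A was 8.09 to 9.57 in L-RFI and 3.49 to 7.09 in H-RFI, a log2 difference of 0.69 ± 0.34 (SE). That difference was 0.02 ± 0.03 (SE) in set 01 and 0.05 ± 0.41 (SE) in set 12, and whether the sets differ in it was not tested. By the study's list it was -0.11 ± 0.45 (SE) in set 03. Over all sets the ratio was 8.67 ± 1.80 (SD, n = 9) in labelled L-RFI and 8.05 ± 2.54 (SD, n = 11) in labelled H-RFI, and 8.50 ± 2.29 against 8.39 ± 2.26 (SD, n = 9 each) by the study's list.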

How the data were processed

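The authors deposited 1 table per steer with CPM for each Ensembl gene of UMD3.1, from paired reads aligned with TopHat2 (2.0.10 in the submitters' processing notes) and Bowtie2 and counted per gene with HTSeq-count. The sample labels describe another RNA extraction than the Methods. Strand was not stated to be used in counting. Groups came from the labels and sets from the column headers. Dividing each column by the value of 1 read gave whole reads for 100% of values (tolerance 0.02).

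Genes past edgeR's filterByExpr (minimum count 10, by set) were TMM-scaled and tested on log2(CPM + 1), a scale that understates changes of low genes, with limma 3.58.1 (lmFit, eBayes with trend) in R 4.3.3, Benjamini-Hochberg adjustment and a threshold of 0.05. A pseudocount of 1 was added. Alternatives were no TMM, RLE factors, a pseudocount of 0.1, no filter, edgeR 4.0.16 and DESeq2 1.42.0 on the recovered reads, the study's list of groups, 12 steers with 1 group in both sources, set or RFI group as covariate, and leaving out 4 libraries or each library in turn. The letter of the code as covariate, the ratio tests within a letter and leaving out 5 libraries were chosen after seeing the data. The 4 libraries were those of steers 47, 105, 155 and 317, and the 5 also held steer 345. The ratio, and each gene on log2(CPM + 1), were compared between sets by exact two-sided permutation. Correlations used 100000 permutations, or all of them for n under 10 (Python 3.11.15, scipy 1.17.1). The limma step was tested on simulated data.

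The genes named are, for each tubulin gene, the 5 with the highest and 2 with the lowest r among genes with a symbol in the study's gene list, and lists of cytoskeletal, junction and marker genes. The 2 members and all lists were chosen with earlier results of these data known. Of 11 lists of cytoskeletal genes, junction genes and markers, those of fibroblasts and immune cells had 0 identifiers, and lists of further tubulin, folding and modification genes could not be read. A member of these lists is not reported here. Nothing says that a steer had more than 1 sample, and p-values measure the spread between libraries, each labelled as 1 steer. Intervals from reads cover counting error only.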

Additional observations from a re-analysis of the deposited data

How the results depend on the processing

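The TUBA4A difference between sets 12 and 01 was called in every setting except without the 5 libraries set apart (0.45), and it ranged from 0.57 to 0.74 when each library was left out. That of set 03 against 01 was called only on the deposited CPM (0.43) and by DESeq2 (0.63). The ratio differed from set 01 in the same direction in every setting. With 1 library left out its log2 difference ranged from -0.75 to -0.51 (set 12) and from -0.63 to -0.34 (set 03). Without the 5 libraries, that of set 12 was -0.21 and did not pass after adjustment (exact permutation p = 0.0444, adjusted p = 0.0667, 2 against 8 libraries). The tests within the letters (-0.68 and -0.89 in A, -0.62 and -0.20 in B) had too few libraries to pass. Signs between sets turned only where no call was made, namely TUBB5 on the deposited CPM (-0.24 and -0.11 against set 01), TUBB5 between sets 12 and 03 without 4 libraries (0.087) or 5 (0.17), TUBA4A there on the deposited CPM (-0.0196), and the ratio there without 5 libraries (0.13) or within letter A (0.21). With 1 library left out, TUBB5 ranged from -0.038 to 0.0661 (sets 12 and 01), -0.0495 to 0.123 (03 and 01) and -0.0924 to 0.0797 (12 and 03), and the ratio between sets 12 and 03 from -0.312 to 0.0334. The correlation of the genes was -0.373 on the deposited CPM, 0.568 without 4 libraries and 0.728 without 5, and between 0.0089 and 0.268 with 1 left out.

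Counts over all genes moved more. Without the 5 libraries they fell to 9 genes (sets 12 and 01) and 118 (any set), rose to 171 (03 and 01) and fell to 1 (12 and 03). Without 4 libraries, 468 genes were called for any set and 21 between sets 12 and 03. The main counts were 57 genes for sets 03 and 01 and 129 for sets 12 and 03, against 102 and 242 with edgeR, 740 and 1034 with DESeq2, and 23 and 44 with the letter as covariate; sets 12 and 03 gave 75 with RLE and 77 with no filter. With 1 library left out the counts ranged from 4882 to 9753 (any set), 7176 to 10078 (12 and 01), 18 to 278 (03 and 01) and 12 to 7411 (12 and 03), the last without steer 47, and the lowest for any set without steers 345 (4882) and 155 (4895). The cause was not tested. The difference of TUBA4A by RFI label, not tested, turned sign with edgeR (-0.0463), DESeq2 (-0.0583) and set as covariate (-0.05), was 0.244 without 4 libraries and ranged from -0.0391 to 0.128 with 1 left out. By RFI group 0 genes were called by limma in each setting, each library left out included, and 0 by edgeR and DESeq2, with 30 to 489 genes at an unadjusted p under 0.05 apart from the fits without a single library. No paired analysis was possible because the labels give the groups no shared replicate numbers, and what the last digit of the header code marks is not explained in the sources used here. Reads per gene limit the ratio within set 01, where its spread was near counting error.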
